A study of Leucoraja erinaceus with 4 samples.

Results

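Features of the little skate axial skeleton were examined whose level in the synarcual was at least 4-fold below that in the post-synarcual at stage 28, and less than 2-fold below it at stage 33. They numbered 48 of the 23105 assembled features in the series. The species, Leucoraja erinaceus, is a cartilaginous fish. Stage 33 and stage 28 each gave 1 synarcual and 1 post-synarcual library, 4 in all. Each library was made from total RNA of the axial skeleton of male embryos, after the nervous system and axial muscle had been taken away. The labels name no strain, treatment or genetic change, and their wording does not settle how many animals went into a library. The files name no genes, and 0 of the 48 identifiers occur in the RefSeq gene table of the species. The dissected tissue could therefore not be checked against skeletal, muscle, nerve or blood markers, and no function is given for any feature.

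The vertebral column of skates forms from segmented embryonic tissue along the body axis, and vertebrae generally differentiate in sequence from front to back. In batoid fishes the foremost vertebral elements become a single cartilage block, the synarcual, which lies in front of free vertebrae and to which the girdle of the large pectoral fins is attached. Fusion of vertebrae is an unusual outcome of a process that normally keeps segments apart, and the free vertebrae behind the block serve as its reference.

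Members were chosen on 3 differences in log2 CPM, which is a count relative to the scaled size of its library, with a prior count of 2. The region difference, synarcual minus post-synarcual, had to be -2 or lower at stage 28 and above -1 at stage 33, and the stage 28 post-synarcual had to hold at least 50 counts. A feature was left out when its highest count reached 200 and its mean stage difference was 2 or more in size. Because these values chose the members, the differences below are descriptions and none was tested. Each group has 1 library, so no difference has a replicate check, and the 95% intervals (exact Clopper-Pearson) cover counting error only. In bulk tissue, fewer cells of a type and less RNA per cell cannot be told apart.

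The threshold at stage 28 was met by 173 of 10582 features with at least 50 counts in either region, or 1.63%. Of these, 96 also had a stage 33 difference of -1 or lower, and 29 were left out for their stage difference, 14 of them higher at stage 33 and 15 higher at stage 28. The other 48 are the members. Only 42 of them passed the filter used for scaling, at least 10 counts in at least 2 libraries, and the other 6 are members through their stage 28 post-synarcual count alone. In the opposite direction, 118 features or 1.12% had a stage 28 difference of 2 or more, and mirrored thresholds left 80 of them.

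At stage 28 the median member stood at 3.56 CPM in the synarcual (0 to 117) and 23.0 CPM in the post-synarcual (8.88 to 948), beside medians of 17.0 and 17.2 CPM over the features that passed the filter. At stage 33 they held 6823 synarcual counts, or 0.145% of that library (0.141 to 0.148), and 7259 post-synarcual counts or 0.143% (0.139 to 0.146). At stage 28 they held 3146 synarcual counts or 0.0755% (0.0729 to 0.0782), against 23644 post-synarcual counts or 0.603% (0.595 to 0.610). On scaled counts their sums at stage 33 were 1749.7 CPM (synarcual) and 2386 CPM (post-synarcual), against 547 and 4197 CPM at stage 28. The member with the most counts in the stage 28 post-synarcual supplied 22.6% of the members' counts there. Without it the sums were 1645 and 2245 CPM at stage 33 and 430.2 and 3249 CPM at stage 28, with the libraries in the same order.

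The levels varied widely among members. Corrected for length, in TPM as deposited, the median member stood at 10.3 TPM (synarcual) and 8.63 TPM (post-synarcual) at stage 33, and at 3.13 TPM (synarcual) and 30.9 TPM (post-synarcual) at stage 28. In the last of these the range was 6.57 to 1090 TPM, and by rank of counts the members ran from position 60 to position 9882 among all features of that library. Counts there were 200 or more for 19 members and under 100 for 18. In the stage 28 synarcual 9 members had 3 counts or fewer and 1 had none.

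**Figure D1:**
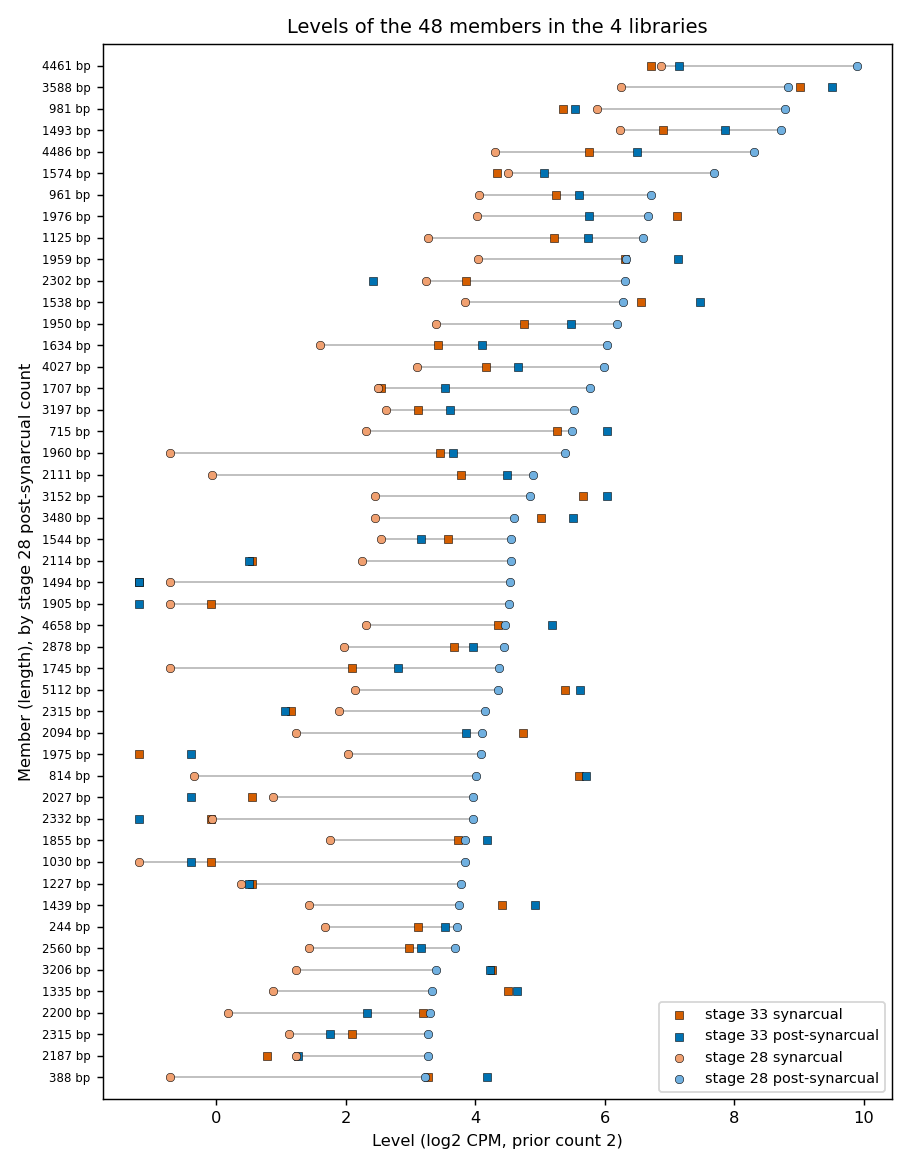
Each row is 1 member, labelled by its length and ordered by its count in the stage 28 post-synarcual, with its log2 CPM in the 4 libraries (squares stage 33, circles stage 28) and a grey line joining the stage 28 regions. On the scaling used, the highest library is the stage 28 post-synarcual in 32 of 48 rows, and the lowest is the stage 28 synarcual in 36.

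The stage 33 synarcual was the highest of the 4 libraries in 3 members, the stage 33 post-synarcual in 13 and the stage 28 post-synarcual in 32. The lowest library was the synarcual of stage 33 in 6 members, the post-synarcual of stage 33 in another 6 and the synarcual of stage 28 in 36. The first 6 include a tie, a feature of 1494 bp with 0 counts in both stage 33 libraries. The plot of levels shows these orders row by row. By the rule the stage 28 synarcual could not be the highest library. The orders hold for the scaling used, and those across stages depend on it. In a member of 3588 bp the stage 33 post-synarcual was highest, at 727 CPM. In TPM the stage 28 post-synarcual was highest for this member, at 262 TPM.

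The size of the stage 28 difference ran from -6.10 to -2.01, with a median of -2.83. It was -4 or lower in 10 members, and above -2.5 in 20. In all 48 the counting interval of the ratio lay below -1 on the log2 scale, and in 30 it lay below -2. The largest difference belonged to a feature of 2 transcripts with a mean length of 1960 bp, with 1 synarcual and 233 post-synarcual counts. Another, of 1494 bp, had 1 and 129 counts, and its ratio of post-synarcual over synarcual was 132 with an interval of 23.2 to 5244. With so few synarcual counts the interval of a fold is wide. The limit that 0 counts leaves, 3 counts, equals 0.769 CPM (synarcual) and 0.986 CPM (post-synarcual) at stage 33, and 0.521 CPM (synarcual) and 0.533 CPM (post-synarcual) at stage 28.

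**Figure D2:**
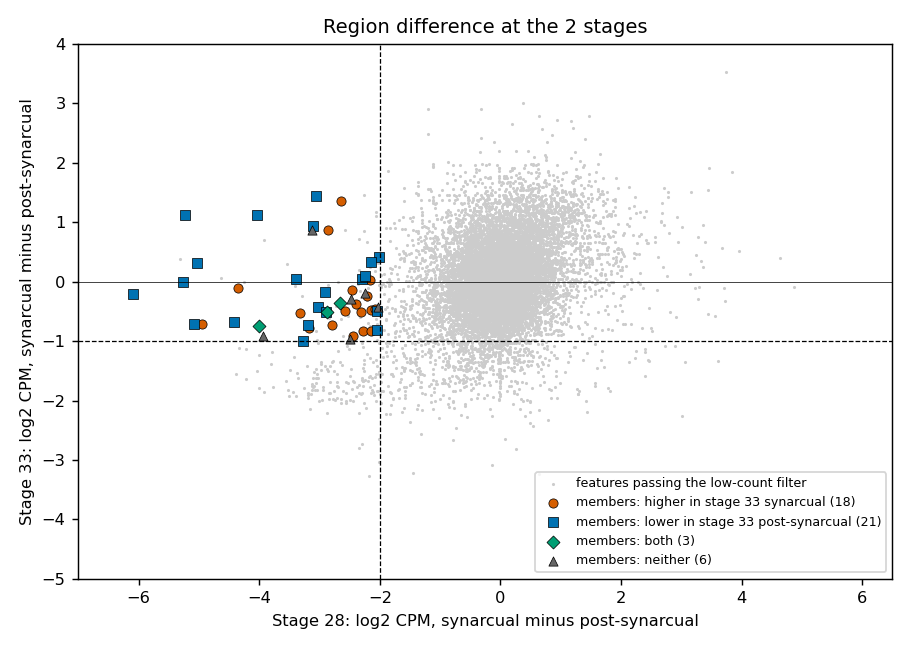
Each point is 1 feature, with its log2 region difference (synarcual minus post-synarcual) at stage 28 on the horizontal and at stage 33 on the vertical axis. Grey points are the features that passed the low-count filter, coloured points are the 48 members by how they differed between stages, and dashed lines mark the thresholds of -2 and -1. The members run from -0.996 to 1.44 at stage 33 and from -6.10 to -2.01 at stage 28.

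At stage 33 the region difference ran from -0.996 to 1.44. Its median over the members was -0.40 (quartiles -0.71 and 0.04), beside 0.00 over the 14668 features that passed the filter. The threshold of -1 removed the lower end of this distribution, so nothing is read from the median. The synarcual remained below the post-synarcual in 33 members and stood above it in 14. For 20 members the counting interval lay wholly below 0, beside 16.8% of the features that passed the filter, and for 3 it lay wholly above 0, beside 16.5%. For the other 25 it included 0. The rule used this difference, so nothing is read from these counts beyond the members' own values, and "at stage 28 only" refers to a difference of 2-fold. With scaling to total counts, which moved the median of all features to 0.45, 4 intervals lay below 0 and 6 above. The shares over all features are not given for that scaling, so these 2 numbers cannot be set against 16.8% and 16.5%. By construction 0 of the 28 members with at least 50 counts were called lower at stage 33, beside 5.44% of all features with that many. Of the 28, 2 were called higher, beside 6.31%.

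**Figure D3:**
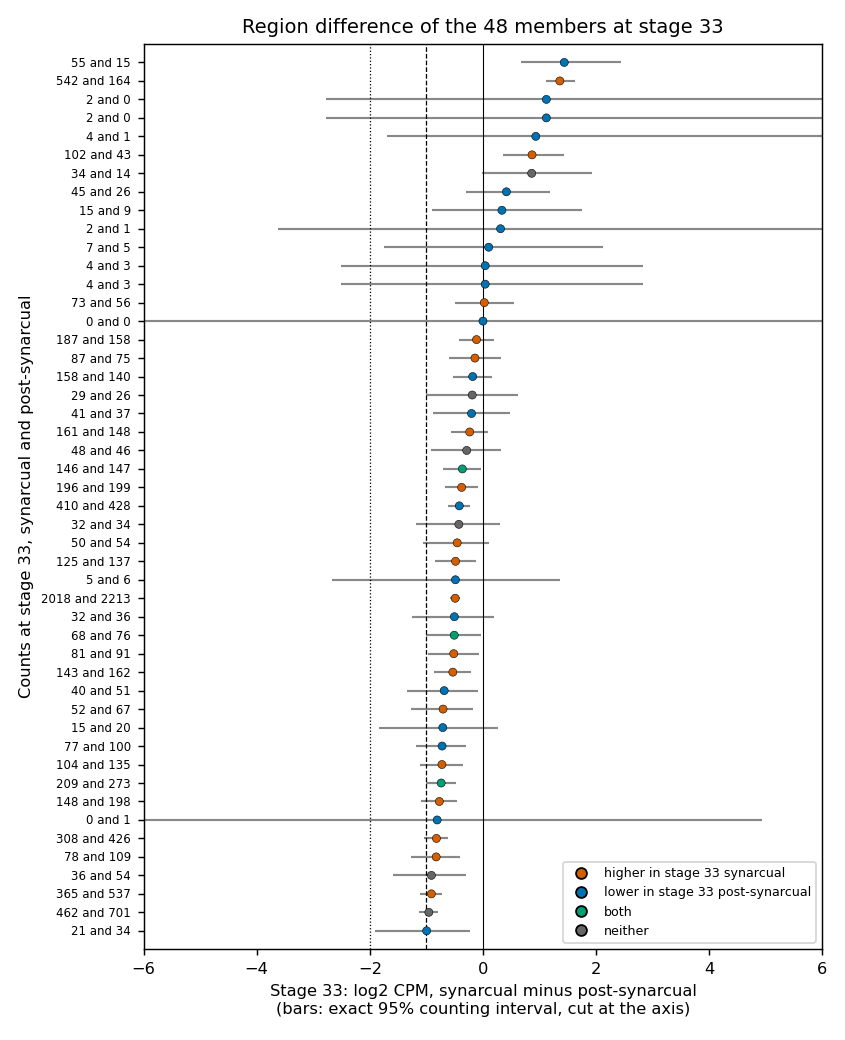
The stage 33 region difference of each member (point, log2 CPM, synarcual minus post-synarcual) with the exact 95% counting interval of the ratio (bar), ordered by size and labelled with the counts in the synarcual and the post-synarcual. Dashed and dotted lines mark -1 and -2. The intervals of 20 members lie left of 0, those of 3 lie right of it, and 8 reach -2.

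For 10 members the stage 33 difference rested on almost no counts. They had 52 to 130 counts in the stage 28 post-synarcual and at most 7 in either region at stage 33, and the 6 members that failed the low-count filter were among them. The feature of 1494 bp had 0 counts in both regions at stage 33. In 8 of the 10 the counting interval reached -2. For these 8, a stage 33 difference as large as the stage 28 threshold lay within counting error. In the other 38 members, with 10 or more counts in some stage 33 library, no interval reached -2.

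The rule itself requires the region difference to narrow between the stages. To describe this, the members were divided by their stage difference, stage 33 minus stage 28, within each region. A difference was called when it was at least 1 in size on the log2 scale on 50 or more counts in whichever library was higher. Both differences contain a stage 28 library that chose the members, so higher values in the stage 33 synarcual and lower ones in the stage 33 post-synarcual are favoured by the choice. In the synarcual, 21 of the 26 members with enough counts were called higher at stage 33 and 0 lower. Among all features with that many counts, 18.5% were called higher and 16.1% lower. Of these 26, 13 reached 50 counts through the stage 33 synarcual alone, so that a higher value there was fixed by the filter, and all 13 were called. Of the 13 with 50 counts in the stage 28 synarcual, 8 were called higher. In the post-synarcual, 24 of 48 were called lower and 6 higher, beside 15.6% lower and 15.8% higher. These numbers of calls depended on the scaling, as given in the last section. The synarcual had a median stage difference of 1.4998, and the post-synarcual one of -1.04. Put together, 21 members were called lower in the post-synarcual alone, 18 higher in the synarcual alone, 3 both and 6 neither. This division depends on the minimum of 50 counts and on the scaling as well as on the levels.

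**Figure D4:**
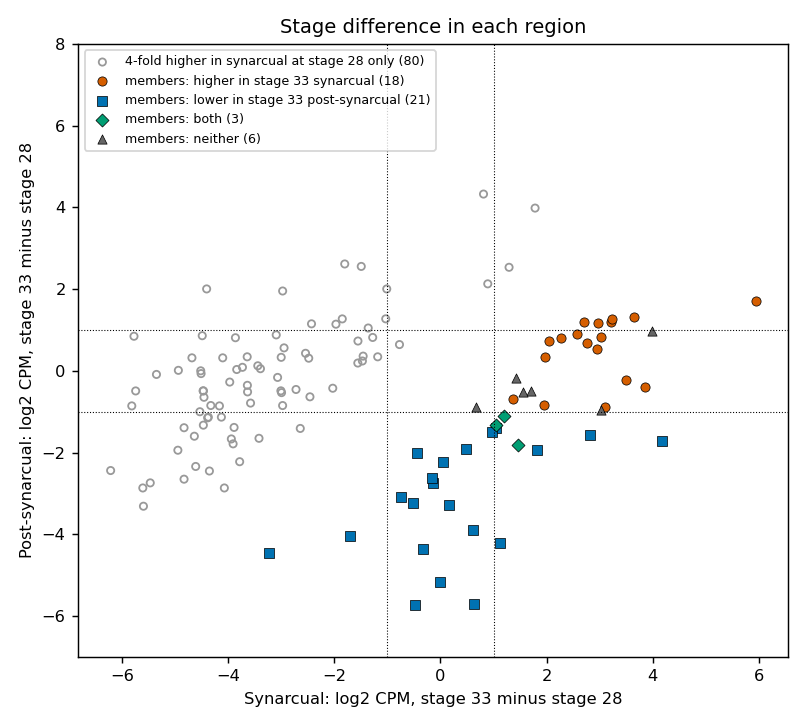
Stage difference (log2 CPM, stage 33 minus stage 28) in the synarcual on the horizontal and in the post-synarcual on the vertical axis. Filled points are the 48 members by class and open circles the 80 features of the mirrored rule, and dotted lines mark 1 and -1. The members called higher in the synarcual alone lie between 1.37 and 5.95 on the horizontal axis, and those called lower in the post-synarcual alone between -5.74 and -1.39 on the vertical axis.

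Among the 21 members lower in the stage 33 post-synarcual alone, the median synarcual level was low at both stages. The median post-synarcual level was close to it at stage 33, where the rule bounds how far the post-synarcual can lie above. Single members differed, with synarcual levels of 0 to 105 CPM at stage 33 and 0 to 117 CPM at stage 28. Their synarcual stage differences ran from -3.23 to 4.17. Median stage differences were 0.04 (synarcual) and -3.10 (post-synarcual). The median levels at stage 33 were 3.85 CPM (synarcual) and 2.96 CPM (post-synarcual), against 2.61 and 22.9 CPM at stage 28. All 10 members with under 10 counts in both stage 33 libraries fall in this class. In 20 of the 21 the stage 33 synarcual stayed at least 2-fold below the stage 28 post-synarcual. Over the features that passed the filter, the lower quartile of this difference was -0.67. For 5 members the synarcual difference was 1 or more but on fewer than 50 counts, and for 2 it was -1 or lower on such counts.

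TRINITY_DN45596_c2_g1 (4461 bp), the member with the most counts in the stage 28 post-synarcual, belongs to this class. At stage 33 it had 410 synarcual and 428 post-synarcual counts, against 671 and 5342 at stage 28. The stage 28 post-synarcual alone was high, and the other 3 libraries lay within 105 to 141 CPM. Its region difference was -0.42 at stage 33 (interval -0.62 to -0.22; 0.049 with total counts and 0.081 in TPM) and -3.02 at stage 28 (-3.14 to -2.91). The stage difference was -0.15 in the synarcual, against -2.75 in the post-synarcual.

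TRINITY_DN34585_c0_g1, a short feature of 981 bp, had the highest level per length among the members at stage 28. At stage 33 its level was 70.8 TPM (synarcual) and 56.3 TPM (post-synarcual), against 132 and 1090 TPM at stage 28. Its counts were 158 and 140 at stage 33, against 335 and 2470. Again a single library was high. The region difference was -0.18 at stage 33, with an interval of -0.52 to 0.15 and values of 0.28 with total counts and 0.33 in TPM, and -2.90 at stage 28, with an interval of -3.08 to -2.75.

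A feature of 2302 bp in this class changed direction between the stages. With 55 synarcual and 15 post-synarcual counts at stage 33, it had 52 and 444 at stage 28. The stage 28 post-synarcual was the highest library and the stage 33 post-synarcual the lowest. The region difference was 1.44 at stage 33 (0.67 to 2.45) and -3.06 at stage 28 (-3.57 to -2.71). The synarcual difference between stages was 0.62 and that of the post-synarcual -3.88.

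In the 18 members called higher in the stage 33 synarcual alone, the median stage 33 synarcual level lay between the median post-synarcual levels of the 2 stages. Median stage differences were 2.96 (synarcual) and 0.77 (post-synarcual). Median levels at stage 33 were 34.4 CPM (synarcual) and 46.8 CPM (post-synarcual), against 4.52 and 26.1 CPM at stage 28. In 12 of the 18 the stage 33 synarcual was within 2-fold of the stage 28 post-synarcual, in 3 it was at least 2-fold above and in 3 at least 2-fold below. Over the features that passed the filter, the quartiles of this difference were -0.67 and 0.72. Lying within 2-fold was thus common, and nothing is read from the 12. The 6 members called higher in the stage 33 post-synarcual are all of this class. These 6 calls depend on the scaling. For this difference the median of all features moved to -1.25 with total counts and to -1.01 in TPM. The largest of the 6 was 1.71, in a feature of 814 bp. In TPM its post-synarcual stood at 80.6 at stage 33 and 49.3 at stage 28, less than 2-fold apart. The stage 33 counting interval lay below 0 in 11 of the 18 and above 0 in 2.

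TRINITY_DN40553_c0_g1 (2 transcripts, mean length 3588 bp) had the most counts of this class. Stage 33 gave 2018 synarcual and 2213 post-synarcual counts, against 438 and 2559 at stage 28. The stage 28 synarcual was the low library and the other 3 lay between 454 and 727 CPM. Stage differences were 2.76 (synarcual) and 0.68 (post-synarcual), and the post-synarcual one turned to -0.59 with total counts and -0.35 in TPM. The region difference was -0.49 at stage 33 (-0.58 to -0.40; 0.016 in TPM) and -2.57 at stage 28 (-2.73 to -2.43).

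TRINITY_DN44936_c0_g1 (1976 bp) had 542 synarcual and 164 post-synarcual counts at stage 33, against 91 and 568 at stage 28. The 2 regions exchanged their order. On the scaling used the stage 33 synarcual was the highest library and the stage 28 synarcual the lowest. In TPM the stage 28 post-synarcual was slightly the highest, at 111 against 107 in the stage 33 synarcual. Its region difference was 1.36 at stage 33 (1.11 to 1.63) and -2.64 at stage 28 (-3.01 to -2.35). The synarcual difference between stages was 3.10 and that of the post-synarcual -0.90, short of a call. With total counts the post-synarcual value was -2.15 and in TPM -1.91, either of which would be called and place the feature among those called in both regions. A feature of 2094 bp showed the same order on fewer counts, with 102 synarcual and 43 post-synarcual at stage 33, against 11 and 94 at stage 28. Its stage 33 difference of 0.87 had an interval of 0.36 to 1.44.

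A feature of 814 bp had the largest stage difference in the synarcual. Its stage 33 counts were 187 (synarcual) and 158 (post-synarcual), against 2 and 88 at stage 28. Between stages it differed by 5.95 (synarcual) and 1.71 (post-synarcual). With the scaling used, the stage 33 regions did not differ beyond counting error, at -0.11 with an interval of -0.43 to 0.20. In TPM the order was the reverse, at 107 (synarcual) and 80.6 (post-synarcual). The post-synarcual stood at 49.3 TPM at stage 28, so in TPM its stage difference was less than 2-fold.

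Only 3 members, of 4486, 961 and 4027 bp, were called in both regions, higher in the stage 33 synarcual and lower in the stage 33 post-synarcual. The feature of 4486 bp had 209 synarcual and 273 post-synarcual counts at stage 33, against 111 and 1781 at stage 28. The feature of 961 bp had 146 and 147 counts at stage 33 and 93 and 589 at stage 28. The feature of 4027 bp had 68 and 76 counts at stage 33 and 47 and 355 at stage 28. In each of the 3 the stage 33 values of both regions lay between the stage 28 values, and the stage 33 interval stayed below 0. For the features of 961 and 4027 bp it did so narrowly, with upper bounds of -0.028 and -0.027. In TPM the stage 33 synarcual was the higher region for the feature of 961 bp, at 67.2 against 60.6, and the lower for the others. The synarcual stage differences were 1.45, 1.19 and 1.05, and these calls depend on the scaling. With total counts the median of all features for this difference moved to -0.73. In TPM the synarcual of the 961 bp feature stood at 67.2 at stage 33 and 37.5 at stage 28. That of the 4027 bp feature stood at 6.21 and 3.81. Both are less than 2-fold apart, and in TPM only the 4486 bp feature, at 17.0 and 8.03, was not. Values with total counts are not given for these 3 features, so that call is not shown to hold there.

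Of the 6 members without a call, 5 had a synarcual difference of 1 or more on fewer than 50 counts. The exception was a feature of 1493 bp, with 462 synarcual and 701 post-synarcual counts at stage 33, against 430 and 2382 at stage 28. Its stage differences were 0.66 (synarcual) and -0.87 (post-synarcual). With a region difference of -0.96 (-1.13 to -0.79) at stage 33, it was one of the members nearest to the threshold of -1.

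Some members may not be separate genes. Features whose identifiers share the DN number come from the same cluster of reads in the assembler, and can be fragments of a gene or close copies. The 48 members fall in 46 such clusters. TRINITY_DN45596_c2_g1 shares its cluster with a member of 1574 bp, whose counts were 77 (synarcual) and 100 (post-synarcual) at stage 33, against 128 and 1159 at stage 28. Its region differences of -0.72 at stage 33 and -3.18 at stage 28 had intervals of -1.18 to -0.29 and -3.48 to -2.94, which overlap those of the longer feature. The member of 4486 bp shares its cluster with one of 1634 bp, which had 40 and 51 counts at stage 33 and 15 and 366 at stage 28. The stage 28 differences of this pair were -4.004 (-4.32 to -3.76) and -4.43 (-5.49 to -3.90).

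In all, 12 of the 48 members shared a cluster with some other feature, beside 31.2% of all features. Their clusters held 20 features that are not members, of which 10 reached 50 counts in a stage 28 region. Of these 10, 6 had a stage 28 region difference of -1 or lower, beside 4.93% of all features with that many counts. The nearest was a feature of 4483 bp with a difference of -1.99, from the cluster of a member of 1439 bp. In the cluster of the 4486 bp member, a feature of 5411 bp had a difference of only -0.82 on 1166 and 2016 counts. A shared cluster therefore did not always go with the same difference.

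What the rule did not use was length and the number of transcripts. The median length was 1967 bp among the members (244 to 5112), against 2400 bp for the 9889 other features with at least 50 counts in the stage 28 post-synarcual. Several transcripts had been assembled for 7 members, or 14.6%, against 25.3% of all features with that many counts. The length RSEM reports for such a feature is weighted by its transcripts. The member with the largest stage 28 difference had a weighted length of 1624 bp (synarcual) and 2215 bp (post-synarcual) at stage 33, against 2215 and 1785 bp at stage 28, where the synarcual value rests on 1 count. In the other 6 the length varied by 6.61 to 245 bp across the libraries.

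The mirrored set of 80 features, high in the synarcual at stage 28 and not at stage 33, had other stage 33 counts than the members. Both stage 33 libraries held under 10 counts for 10 of the 48 members, or 20.8%, against 48 of the 80 mirrored features, or 60.0%. This share is not given for all features, so no excess or lack is read from it in either set. For the 9889 other features with at least 50 counts in the stage 28 post-synarcual, the lower quartiles at stage 33 were 56 (synarcual) and 43 counts (post-synarcual). The mirrored set was instead chosen on 50 counts in the stage 28 synarcual, to which these quartiles do not apply. The region that was high at stage 28 was at least 2-fold lower at stage 33 in 24 of 48 members, against 75 of 80 mirrored features. Among all features with 50 counts, 15.6% were that much lower in the post-synarcual and 16.1% in the synarcual. The median level of the members at stage 33 was 13.7 CPM (synarcual) and 17.8 CPM (post-synarcual), against 1.28 and 1.64 CPM for the mirrored set. Both sets were chosen on these libraries, and the difference between them was not tested.

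Features just inside and just outside the thresholds had similar values, so the bounds of the set are those of the rule. The member nearest to the stage 28 threshold had a difference of -2.01 and the nearest feature outside -1.99. At stage 33 the values were -0.996 and -1.03. In counts of the stage 28 post-synarcual they were 50 and 48, and in the size of the mean stage difference, among features with 200 counts, 1.95 and 2.21. The members' median stage 28 difference was -2.83, against -2.71 in the 96 features lower at both stages, which had a median stage 33 level of 63.6 CPM (synarcual) and 183 CPM (post-synarcual).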

How the data were processed

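Sequencing was unstranded TruSeq in 1 shared HiSeq2000 lane, per the labels' protocols. The authors' deposited files hold estimated counts (RSEM expected counts), TPM and transcript-weighted lengths per assembled gene, per the file headers. The submitters' processing notes list Bowtie2 and RSEM, with neither version nor setting given in the sources used here. Estimated counts were rounded to whole numbers. Totals ran from 3922525 to 5092346 counts per library, and whether a count is a read or a pair is not stated.

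Libraries were scaled with edgeR 4.0.16 (TMM, R 4.3.3) on features reaching 10 counts in 2 or more libraries. TMM factors were 0.831 (synarcual) and 0.599 (post-synarcual) at stage 33, against 1.39 and 1.44 at stage 28. Log2 CPM with a prior count of 2 was computed for all features. Medians of all features, taken over those that passed this filter, then lay within 0.04 of 0 in every comparison. Ratios have exact Clopper-Pearson intervals. No count test was run, because each group has 1 library and the differences chose the members. The code for scaling and thresholds was checked on simulated counts, which bears on the code and not on the members. Unstranded reads of overlapping transcripts on opposite strands, and of split or copied features, cannot be told apart.

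Members, classes and named features were chosen with earlier results of these data known. Identifiers are printed for the 2 members with the most stage 28 post-synarcual counts in each of the classes called in a single region, and the other features are given by length, some chosen after their values were seen. Alternatives were DESeq2 1.42.0 size factors, total counts, deposited TPM with a pseudocount of 0.5, other prior counts, no filter and other member thresholds.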

Additional observations from a re-analysis of the deposited data

Results flagged for a closer look

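In 2 members the synarcual was the lower region at stage 28 and the higher one at stage 33, each at least 2-fold on at least 50 counts. TRINITY_DN44936_c0_g1 had a difference of 1.36 at stage 33 and -2.64 at stage 28, 4.00 apart on the log2 scale. The feature of 2302 bp had 1.44 at stage 33 and -3.06 at stage 28, 4.50 apart. Each group has 1 library, so the change of direction was not tested.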

How the results depend on the processing

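No paired analysis was possible because each group has 1 library, and no library could be left out. With total counts or deposited TPM, the median of all features moved to 0.45 and 0.48 for the stage 33 region difference, to -0.73 and -0.39 for the synarcual stage difference and to -1.25 and -1.01 for the post-synarcual one. Over the same 48 members the median stage 33 region difference was then 0.036 and 0.11. Their median post-synarcual stage difference was -2.26 and -2.02, and with total counts their synarcual one was 0.93. Relative to the median of all features, the members' median stage 33 difference was -0.41 with total counts and -0.37 in TPM, against -0.40 as reported. When the rule was applied anew under these 2 settings, members numbered 67 and 68, sharing 43 and 44 with the 48. DESeq2 size factors, prior counts of 0.5 and 5 and no filter gave 45 to 51 members. Other thresholds changed the number of members by construction. It was 30 with a minimum of 100 counts, 88 and 20 with stage 28 thresholds of -1.5 and -3, 30 with a stage 33 threshold of -0.5, and 77 with no exclusion for stage. With the threshold of -3 the median post-synarcual stage difference was -2.08, and with that of -0.5 the median stage 33 region difference was -0.057, in each case over fewer members. Among the 48 members, the numbers called between stages stayed within 1.5 times under every scaling, prior count and filter tried. With total counts, 17 of the 48 were called higher in the synarcual and 34 lower in the post-synarcual. In TPM these were 18 and 34 of the 48, against 21 and 24 as reported. The balance between higher and lower calls therefore depended on the scaling. Of 96 values of the 4 features printed by identifier under these settings, 71 stayed within their counting interval and 25 moved outside it, with 0 called values changing sign. The sign turned for 7 values under 1 in size, each with total counts or TPM, and these stand beside the features.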
